A study of Mus musculus with 11 samples.

Results

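Epiblast stem cells of the male mouse line E3 carry a green fluorescent reporter of Oct4 (Oct4-GFP), and the reporter-positive fraction, EpiSC-GFP+, was compared with the reporter-negative fraction, EpiSC-GFP-. Both fractions came from E3 cells in conditioned medium (CM) and were separated by flow cytometry, with 2 arrays per fraction. A probe was a member of the comparison where its detection p-value was under 0.01 on both arrays of at least 1 fraction, which 9930 of the 25697 probes on the array met. Taken as genes, with 1 probe each, there were 7579 members among 9620 genes tested, and 7015 of the members had a gene symbol. The gates of the sort and the construct of the reporter are not given in the sources used here. The reporter transcript itself was not among the measurements used.

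The study profiled 6 kinds of pluripotent culture on 11 bead arrays, and its title concerns subpopulations of epiblast stem cells and the stages of the embryo before gastrulation that they resemble. The other groups used here were Epi-Sox2, male GOF18 epiblast stem cells overexpressing wild-type Sox2 in CM, EpiSC, male GOF18 cells, T9-EpiSC, male T9 cells kept on a layer of CF1 embryonic fibroblasts, which was left out at harvest after 2 days of culture lacking Fgf2, and ESC, male embryonic stem cells. All had 2 arrays except T9-EpiSC, which had 1. The arrays of a group are labelled as biological replicates, but E3 is a single line, so every p-value below measures spread among arrays alone, which may be technical.

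Epiblast stem cells are pluripotent cells that resemble the epiblast of the embryo after implantation, and they depend on Fgf and activin or Nodal signals. Embryonic stem cells resemble the earlier, naive epiblast. Oct4, encoded by Pou5f1, is made in both states. Reporters that carry the distal enhancer of the gene are known to be active mainly in naive cells and germ cells. Whether the E3 reporter is of this kind is not given in the sources used here. Many genes of oocytes and male germ cells are silent in most later tissues and are kept so by DNA methylation at their promoters.

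Values are log2 intensities after background correction and quantile normalization, and differences are EpiSC-GFP+ minus EpiSC-GFP- ± the standard error of the fit, from n = 2 arrays in each fraction. Adjusted p-values are from limma with Benjamini-Hochberg adjustment over all 9620 genes, and a gene was called at an adjusted p under 0.05. Mean signals were 310.7 and 299.9 on the EpiSC-GFP+ arrays and 266.8 and 199.7 on the EpiSC-GFP- arrays, and 10270 and 10315 probes were detected against 9571 and 9250. The EpiSC-GFP- arrays were thus the dimmer ones, and the part of this in the results below was not tested. Across genes, which are not independent replicates, the 2 arrays correlated at r of 0.992 in EpiSC-GFP+ and 0.988 in EpiSC-GFP-, against a mean of 0.964 between the fractions.

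The fractions differed in 2351 members, of which 1208 were higher and 1143 lower in EpiSC-GFP+ (31% of members). Over all genes tested, 2507 were called (26.1%), 1267 of them higher (13.2%) and 1240 lower (12.9%), and the median difference of all genes was -0.01. Of the calls, 383 were higher by at least 1 log2 unit (3.98% of genes tested) and 205 lower by as much (2.13%), 6.11% together. The split depended on the scaling, because median scaling of each array over all probes moved the median of all genes to 0.23 and gave 2216 higher and 202 lower, while median scaling over the tested probes, added after the data were seen, gave 1054 and 1214. Without EpiSC-GFP+ replicate 1 the calls numbered 1349, without its replicate 2 they numbered 1359, and without EpiSC-GFP- replicate 2 they numbered 1605.

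Detection itself was uneven. There were 6552 members detected on both arrays of both fractions. A further 815 were detected on both arrays of EpiSC-GFP+ but on fewer than 2 of EpiSC-GFP-, including 405 on neither. The reverse held for 212, including 88 detected on neither EpiSC-GFP+ array. The 46 probes just inside the detection threshold, at a detection p of 0.008772, had a median level of 5.17, and the 64 just outside it, at 0.01002, had one of 5.22.

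The 4 genes used to mark the comparison behaved as follows. Ooep, an oocyte gene of the subcortical maternal complex, read 11.14 and 11.26 in EpiSC-GFP+ against 5.99 and 5.90 in EpiSC-GFP-, a difference of 5.26 ± 0.12 (adjusted p = 4.12e-08). Klf4, a transcription factor of naive cells, read 8.34 and 8.35 against 4.88 and 4.63, the last pair not detected. Dpp4 and Wnt8a are described with the largest changes below. The naive pluripotency genes as a group were higher, with a median difference of 2.48. Of 17 tested members 15 were called higher and 0 lower, where 13.2% of all genes were called higher. The other 2, Nr0b1 and Jam2, were not detected on any array of either fraction. The list holds Ooep and Klf4, which were used to mark the comparison, so its count is not independent of the markers. For this reason the group is summarised only, and genes beyond it are described from here on.

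Pou5f1, the gene whose reporter was sorted, was not higher in EpiSC-GFP+. It read 13.15 and 13.10 in EpiSC-GFP+ and 13.51 and 13.48 in EpiSC-GFP-, a difference of -0.37 ± 0.13 that did not pass the test (adjusted p = 0.0590). A second detected probe of Pou5f1 differed by 0.02, and the main probe was called lower under 5 of 16 alternatives. Both fractions were above ESC, where Pou5f1 read 11.54 and 11.62. Sox2, the partner of Oct4 on DNA, read 9.44 and 9.36 against 8.98 and 9.03, a difference of 0.39 ± 0.13 (adjusted p = 0.0478). The Sox2 call was lost when any of the 4 arrays was left out (adjusted p = 0.116 to 0.185). Nanog, a homeobox gene of the pluripotency network, was higher by 1.26 ± 0.19 (adjusted p = 0.00201), from 9.02 and 9.13 on the EpiSC-GFP+ arrays and 7.57 and 8.07 on the EpiSC-GFP- arrays.

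The largest rises beyond the naive genes included genes known from testis, oocyte and placenta beside an enzyme of the cell surface. Dpp4, a cell surface peptidase that trims dipeptides from the ends of hormones and chemokines, read 8.87 and 8.97 in EpiSC-GFP+ and 4.41 and 4.43 in EpiSC-GFP-, where it was not detected. It was at least 11.5-fold higher in EpiSC-GFP+ (difference 4.5 ± 0.13, adjusted p = 2.19e-07). Here and below, "at least" is given where a gene was detected on neither array of the dimmer fraction, and divides the level of the brighter fraction by, on each dim array, either the probe's reading or that array's detection floor (its dimmest detected probe), whichever is larger. Rbmxl2, an RNA-binding protein of male germ cells, read 9.14 and 9.23 against 4.49 and 5.03 and was at least 13.7-fold higher (adjusted p = 7.53e-07). The 2 fractions did not overlap for either gene, as was the case for every gene called. In bulk samples such as these, more cells that make a transcript and more transcript per cell cannot be told apart.

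3 of the 16 largest rises lie on the X chromosome. Xlr4a, a member of a family of X-linked genes of lymphocytes and germ cells with near-identical copies that the probe may not separate, read 8.64 and 8.66 in EpiSC-GFP+ and 4.29 and 4.43 in EpiSC-GFP-, at least 9.50-fold higher (adjusted p = 2.41e-07). Rhox5, a homeobox gene of placenta and testis, read 9.97 and 9.69 against 5.33 and 5.90, a difference of 4.22 ± 0.23 (adjusted p = 3.92e-06). Fmr1nb, a testis antigen gene beside Fmr1, read 8.31 and 8.43 against 4.91 and 4.47 and was at least 7.81-fold higher (adjusted p = 1.65e-06). As a description of the chromosome, 18 of the 293 tested genes of X (6.14%) were called higher by at least 1 log2 unit, against 3.98% of all genes, and the values of the autosomes ran from 2.47% to 5.76%.

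Several of the other rises are genes of meiosis and germ cell structure. Stag3, the cohesin subunit of meiotic chromosomes, read 7.95 and 8.17 in EpiSC-GFP+ and 4.49 and 5.04 in EpiSC-GFP-, at least 6.30-fold higher (adjusted p = 1.33e-05). Tex14, needed for the bridges between germ cells, read 7.63 and 7.43 against 4.26 and 4.29, at least 4.37-fold higher (adjusted p = 5.89e-07). Khdc3, a partner of Ooep in the oocyte complex, read 7.53 and 7.41 against 4.47 and 4.38, at least 4.19-fold higher (adjusted p = 5.25e-07). All 3 were detected on both EpiSC-GFP+ arrays and on neither EpiSC-GFP- array.

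The remaining rises were of varied function. Gstp2, a glutathione transferase whose close paralog Gstp1 differed by -0.35 without passing the test, read 10.82 and 10.78 in EpiSC-GFP+ and 6.56 and 6.84 in EpiSC-GFP-, 17.2-fold higher (4.10 ± 0.20, adjusted p = 2.02e-06). Pla2g1b, a secreted phospholipase best known from the pancreas, was 19.3-fold higher, and Laptm5, a lysosomal membrane protein of blood cells, was 10.8-fold higher. Mapt, the microtubule protein tau, was at least 5.45-fold higher, and Septin1, a filament-forming GTPase, at least 5.94-fold. Dppa4, a nuclear protein of pluripotent cells, differed by 3.48 and Cdyl2, a chromodomain protein, by 2.95 ± 0.37. Cdyl2 was the least even of the set, at 7.80 and 7.92 in EpiSC-GFP+ against 5.60 and 4.22 in EpiSC-GFP-. A second Dppa4 probe differed by 2.32 and another, not detected in E3, differed by 0.13.

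**Figure D1:**
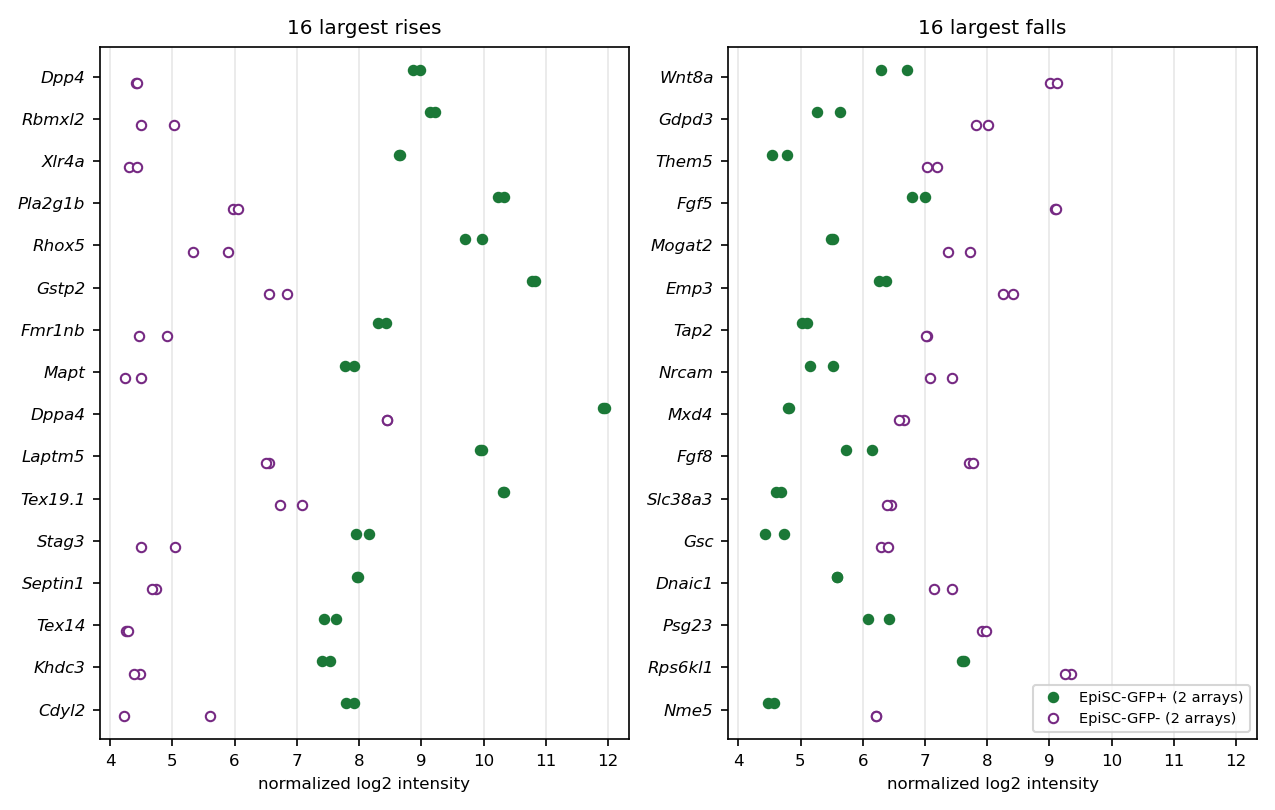
Normalized log2 intensity of the 16 largest rises (left) and 16 largest falls (right) beyond the naive genes, with filled points for the 2 EpiSC-GFP+ arrays and open points for the 2 EpiSC-GFP- arrays. The genes were picked among calls whose arrays did not overlap, so the fractions are apart in every row by selection. The first row is Dpp4 (difference 4.5) and the last is Nme5 (difference -1.68).

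Placed beside ESC, the fractions took different positions from gene to gene. Rbmxl2 read 10.54 and 10.59 in ESC and Rhox5 11.44 and 11.23, above EpiSC-GFP+ in each case. Gstp2 read 7.58 and 7.83 in ESC, Xlr4a 6.98 and 6.79, and Fmr1nb 5.81 and 5.71, all below EpiSC-GFP+ and above EpiSC-GFP-. For these 3 genes, EpiSC-GFP+ minus ESC was 3.09, 1.77 and 2.61 (adjusted p = 9.73e-07 for Gstp2, 4.39e-06 for Xlr4a and 1.13e-06 for Fmr1nb). Tex19.1, a germ line gene that restrains mobile elements, read 10.20 and 10.23 in ESC, and EpiSC-GFP+ minus ESC was 0.10 (adjusted p = 0.543). The comparison with ESC shares the EpiSC-GFP+ arrays with the main comparison, and it sets 1 line against another.

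The array held 25 germ line genes of the list, of which 16 were tested. Of these, 12 were called higher and 0 lower (75%), where 13.2% of all genes were called higher. The median difference was 1.29 against -0.01 over all genes. A gene low in most cultures could enter the test through only the arrays where it was high. The part of this filter in the share of 75% was not tested. The higher count was 11 whichever E3 array was left out and 9 under median scaling over the tested probes. Tex19.1 read 10.32 and 10.31 in EpiSC-GFP+ and 6.72 and 7.08 in EpiSC-GFP- (3.42 ± 0.14, adjusted p = 7.76e-07). Tdrd12, a Tudor domain helicase of the piRNA pathway, which silences mobile elements in germ cells, read 9.09 and 9.13 against 6.33 and 6.10 (2.89 ± 0.12, adjusted p = 7.76e-07). Both genes were detected on all 4 arrays, and neither overlapped between fractions, as for every gene called.

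Dazl and Mov10l1 were near the detection limit. Dazl, an RNA-binding protein of germ cells, read 5.93 and 6.09 in EpiSC-GFP+ and 4.44 and 4.27 in EpiSC-GFP-, where it was not detected, and was at least 1.53-fold higher (adjusted p = 0.000331). Mov10l1, another piRNA helicase, read 5.34 and 5.41 against 4.26 and 4.27 (adjusted p = 0.00138), with EpiSC-GFP- not detected and no fold bound above 1, a call lost under median scaling over the tested probes (adjusted p = 0.156). Tuba3a, a testis tubulin with near-identical copies, was at least 4.02-fold higher on its main probe, and neither this probe nor its 3 others were detected in EpiSC-GFP-. Ddx4 and Stra8, defining genes of later germ cells and of entry to meiosis, and Nanos3, an early germ cell gene, were not detected on any E3 array. Dppa3, a gene of oocytes and early germ cells that is also on the naive list, differed by 2.25 ± 0.18 (adjusted p = 6.25e-05).

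The interferon response and antigen presentation list went the other way. Of 25 tested members, 13 were called lower and 2 higher (60% called), where 12.9% of all genes were called lower and 13.2% higher. The median difference was -0.58. The lower count was 8 without EpiSC-GFP+ replicate 1, 8 without EpiSC-GFP- replicate 2, 10 with cyclic loess, 8 with the authors' values and 4 with median scaling over all probes. Tap2, a subunit of the transporter that carries peptides to class I molecules, read 5.10 and 5.02 in EpiSC-GFP+, where it was not detected, and 7.03 and 7.01 in EpiSC-GFP-. It was at least 3.75-fold lower in EpiSC-GFP+ (-1.96 ± 0.23, adjusted p = 0.000580). Gbp2, an interferon-induced guanylate-binding protein, read 9.04 and 8.93 against 10.32 and 10.26 (-1.30 ± 0.13, adjusted p = 0.000185). Igtp, an interferon-induced GTPase, read 5.35 and 5.96 against 6.96 and 6.86 (-1.26 ± 0.19, adjusted p = 0.00207). As for every gene called, the fractions did not overlap on these 3 genes. Tap2, Gbp2 and Igtp kept their calls in every scaling and with any array left out.

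The falls included the class I machinery at several steps. H2-K1, a class I heavy chain, differed by -0.88 ± 0.21 (adjusted p = 0.0150), H2-T23, a related heavy chain, by -0.83 ± 0.18, and B2m, the shared light chain, by -0.59 ± 0.17 (adjusted p = 0.0299). Psmb8 and Psmb9, the inducible subunits of the proteasome, differed by -1.12 ± 0.30 and -0.87 ± 0.23 (adjusted p = 0.0244 and 0.0235), and Psmb8 was detected on 1 array only, EpiSC-GFP- replicate 1, without which its call was lost (-0.57, adjusted p = 0.0801), as it was without either EpiSC-GFP+ array (adjusted p = 0.0780 and 0.0923). Cxcl10, a chemokine, read 6.13 and 5.79 in EpiSC-GFP+ against 6.92 and 6.88 in EpiSC-GFP-, and Isg15, a ubiquitin-like protein, 5.04 and 5.0 against 5.91 and 5.72, not detected in EpiSC-GFP+. Upstream factors were mixed. Irf1, a transcription factor that drives such genes, was lower by 0.55 on the log2 scale, while Stat2, a mediator of the type I response, was higher by 0.91 ± 0.25 (adjusted p = 0.0270). Ifitm3, a membrane protein on both the germ line and the interferon list, was higher by 0.50. Among these genes the calls of H2-K1, H2-T23, B2m, Psmb9, Cxcl10, Irf1, Stat2 and Ifitm3 were each lost when an array was left out (highest adjusted p = 0.0654 for H2-T23 to 0.184 for B2m), as was that of Tap1 (-0.50, highest adjusted p = 0.286). That of Isg15 was lost under cyclic loess and median scaling over all probes (adjusted p = 0.0550 and 0.189).

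**Figure D2:**
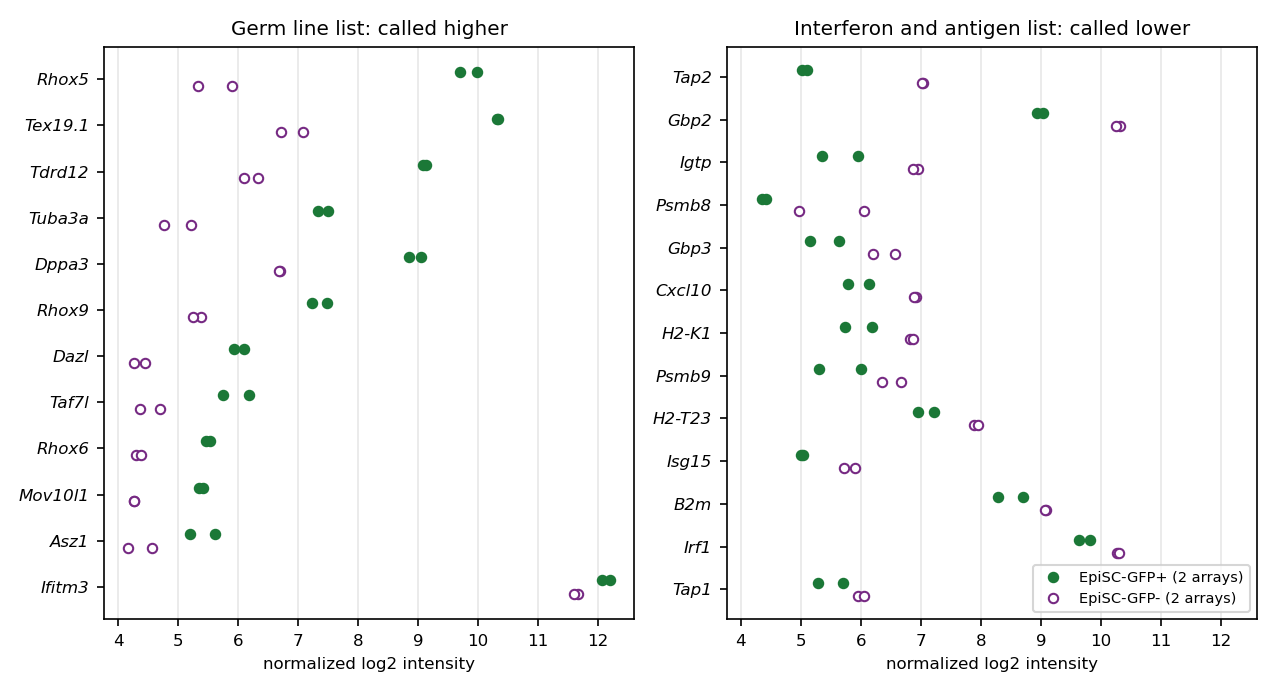
Normalized log2 intensity of the 12 germ line genes called higher (left) and the 13 interferon and antigen presentation genes called lower (right), with filled points for the EpiSC-GFP+ arrays and open points for the EpiSC-GFP- arrays. Differences run from 4.22 (Rhox5) to 0.50 (Ifitm3) on the left and from -1.96 (Tap2) to -0.50 (Tap1) on the right.

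Promoters of 4 interferon genes are shown because 13 of the 25 tested members of the list were called lower in EpiSC-GFP+. All 4 hold the repeat marked below, which other genes called lower, such as H2-K1, Irf1 and Tap1, lack in their windows. The windows are RefSeq sequences of GRCm38.p6 from 250 bases before to 50 after the first listed start, read 5′ to 3′ on the gene's strand. Capitals mark 2 copies of GAAA with any 2 bases between them, on either strand and with overlapping matches joined, which is the repeat known from interferon-stimulated response elements. The Gbp2 window is chr3:142620413-142620712 (plus strand), that of Igtp is chr11:58199306-58199605 (plus), that of Isg15 is chr4:156200769-156201068 (minus) and that of Cxcl10 is chr5:92348840-92349139 (minus).
Gbp2: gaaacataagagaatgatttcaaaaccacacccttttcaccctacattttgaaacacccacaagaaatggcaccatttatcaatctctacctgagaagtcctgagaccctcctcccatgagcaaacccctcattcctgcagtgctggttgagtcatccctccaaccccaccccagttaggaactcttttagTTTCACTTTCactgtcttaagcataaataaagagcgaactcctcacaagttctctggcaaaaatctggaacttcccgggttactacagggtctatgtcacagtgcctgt
Igtp: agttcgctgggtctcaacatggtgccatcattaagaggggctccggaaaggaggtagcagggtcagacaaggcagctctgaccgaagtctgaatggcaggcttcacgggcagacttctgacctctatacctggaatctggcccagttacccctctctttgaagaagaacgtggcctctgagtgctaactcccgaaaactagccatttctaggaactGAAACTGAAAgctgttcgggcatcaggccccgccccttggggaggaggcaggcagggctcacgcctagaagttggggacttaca
Isg15: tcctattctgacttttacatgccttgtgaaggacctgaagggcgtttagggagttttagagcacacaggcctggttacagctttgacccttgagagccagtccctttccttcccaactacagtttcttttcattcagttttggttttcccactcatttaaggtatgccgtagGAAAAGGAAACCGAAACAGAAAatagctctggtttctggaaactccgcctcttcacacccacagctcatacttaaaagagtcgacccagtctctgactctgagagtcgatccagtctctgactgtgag
Cxcl10: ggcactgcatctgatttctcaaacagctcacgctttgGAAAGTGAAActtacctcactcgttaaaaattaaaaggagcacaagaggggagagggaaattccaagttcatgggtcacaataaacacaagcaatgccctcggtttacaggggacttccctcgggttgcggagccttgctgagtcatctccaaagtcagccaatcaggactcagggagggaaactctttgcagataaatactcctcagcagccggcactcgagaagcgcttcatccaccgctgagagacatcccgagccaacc

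The repeat was present in 7 of the 12 genes of the list that were called lower and had a promoter in the table (58.3%). It was present in 12 of 23 tested genes of the list (52.2%), called or not, in 2.86% of the 7237 tested genes with a promoter, and in 3.49% of all 27025 promoters. The list was made of interferon genes, so a share above that of all promoters describes the list and not the fall. The search covered 300 bases at each start and draws nothing about other sites.

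For the largest rises, promoters were searched for the E-box CACGTG and for GGCGGGAA, the E2F-like site, because both are known from promoters of germ line genes. Of the 12 rises with a promoter in the table, CACGTG was present in 2, Rbmxl2 and Stag3 (16.7%), against 10.4% of tested genes, and GGCGGGAA in 1, Tex14 (8.33%), against 4.23%. These counts are small and are given as a description. CACGTG is in capitals in the windows of Rbmxl2 (chr7:107209195-107209494, plus) and Stag3 (chr5:138280259-138280558, plus), shown as the rises that hold it.
Rbmxl2: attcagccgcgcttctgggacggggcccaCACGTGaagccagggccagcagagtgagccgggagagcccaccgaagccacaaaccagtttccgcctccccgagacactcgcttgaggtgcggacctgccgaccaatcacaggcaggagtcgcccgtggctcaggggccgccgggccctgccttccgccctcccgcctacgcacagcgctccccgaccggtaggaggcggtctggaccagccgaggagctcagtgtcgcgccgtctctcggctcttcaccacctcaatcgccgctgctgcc
Stag3: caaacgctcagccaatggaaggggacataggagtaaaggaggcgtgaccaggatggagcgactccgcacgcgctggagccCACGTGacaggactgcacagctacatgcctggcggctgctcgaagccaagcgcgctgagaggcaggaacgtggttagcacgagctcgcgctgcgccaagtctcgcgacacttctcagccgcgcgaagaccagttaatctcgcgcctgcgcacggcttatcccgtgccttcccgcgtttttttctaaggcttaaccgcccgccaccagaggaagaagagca

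The median number of CG dinucleotides per 300-base window was 9 in the 12 rises and 13 in the 10 falls with a promoter, against 21 in tested genes and 7 in all promoters. The octamer ATTTGCAT, bound by POU factors, was in 0 of the 12 rises and in 1.42% of tested genes. The sequences CTTTGAT and CACCC were searched too. CTTTGAT was in 2 of the 10 falls (20%) and 0 of the 12 rises, against 2.69% of tested genes. CACCC was in 9 of the 10 falls (90%) and 4 of the 12 rises (33.3%), against 63.2%. These shares rest on few genes and were not tested.

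The largest falls included signals and targets of the epiblast and the primitive streak, the site of gastrulation. Wnt8a, a Wnt ligand of the primitive streak, read 6.30 and 6.71 in EpiSC-GFP+ and 9.01 and 9.12 in EpiSC-GFP- (-2.56 ± 0.16, adjusted p = 9.61e-06). Fgf5, the growth factor that marks the epiblast after implantation, read 6.80 and 7.0 against 9.09 and 9.11 (-2.20 ± 0.18, adjusted p = 5.66e-05). Fgf8, a growth factor of the streak, read 5.73 and 6.15 against 7.70 and 7.77 (-1.79 ± 0.24, adjusted p = 0.00102). Each was detected in both fractions and 3.47-fold to 5.90-fold lower in EpiSC-GFP+. Gsc, a homeobox gene of the organizer at the tip of the streak, read 4.73 and 4.42 against 6.30 and 6.41, was not detected in EpiSC-GFP+ and was at least 2.35-fold lower (adjusted p = 0.000578).

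The other falls were of varied function. Gdpd3, a lipid phosphodiesterase, read 5.27 and 5.64 in EpiSC-GFP+ and 8.01 and 7.83 in EpiSC-GFP- (-2.47 ± 0.20, adjusted p = 6.57e-05), and Them5, an acyl-CoA thioesterase, 4.54 and 4.79 against 7.20 and 7.04, at least 4.0-fold lower. Mogat2, an enzyme of triglyceride synthesis, differed by -2.03 on its main probe and by 0.09 on a probe not detected in E3. Emp3, a membrane protein, differed by -2.02, the adhesion molecule Nrcam by -1.92, Rps6kl1, a kinase-like gene, by -1.68 and Psg23, a pregnancy-specific glycoprotein of a family with close paralogs, by -1.69. Mxd4, which opposes Myc on DNA, was at least 2.85-fold lower, and the glutamine transporter Slc38a3 at least 2.47-fold lower. Dnaic1, a dynein chain of cilia, differed by -1.71 on its main probe and by -0.62 on the other, and Nme5, a gene of cilia and sperm tails, was at least 2.13-fold lower.

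The primed epiblast list as a whole moved less than these examples. Of 18 tested members 3 were called lower and 0 higher (16.7%), below the 26.1% of all genes, and the median difference was -0.05. The 3 were Fgf5, the growth factor binding protein Igfbp3 (-1.23 ± 0.14, adjusted p = 0.000476) and the tight junction protein Cldn6 (-0.78 ± 0.11, adjusted p = 0.00176), and the call of Cldn6 was lost under median scaling over all probes. The homeobox gene Otx2 differed by 0.30, the POU factor gene Pou3f1 by -0.36 and the methyltransferase gene Dnmt3b by 0.13, none past the test. In the primitive streak and mesoderm list, 2 of 15 tested members were called in each direction, and only 4 of the 15 were detected in E3. Mixl1, Eomes and Evx1, genes of the streak, were not detected on any E3 array. Fgf17, another growth factor of the streak, was higher in EpiSC-GFP+ (1.14 ± 0.19, adjusted p = 0.00353), opposite to Fgf8. The other gene called higher, Cdx1 (0.37, adjusted p = 0.0410), was not detected on any E3 array and kept its call under 3 of 15 alternatives.

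Within the FGF and ERK pathway list, 6 of 24 tested members were higher and 2 lower (33.3%, against 26.1% of all genes). The ligands split. Fgf4, made by naive and early epiblast cells, read 7.93 and 7.93 in EpiSC-GFP+ and 7.04 and 7.04 in EpiSC-GFP- (0.89 ± 0.13, adjusted p = 0.00210), while Fgf5 and Fgf8 were lower. The receptor gene Fgfr1 did not pass (0.18). Among targets and feedback genes of the pathway, the ETS factor gene Etv5 (0.93, adjusted p = 0.00173) and the phosphatase gene Dusp6 (0.62, adjusted p = 0.00517) were higher, but a second detected probe of Dusp6 differed by -0.51 without passing, and another, detected on 1 array, differed by -0.40. Spry4, a feedback inhibitor, differed by 0.03. Hbegf, a ligand of the EGF receptor, read 7.25 and 6.96 against 5.65 and 5.57 (1.49 ± 0.15, adjusted p = 0.000224).

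In the Nodal and activin list, 5 of 22 tested members were lower and 2 higher (31.8%, against 26.1% of all genes), with a median difference of -0.36. The lower count was 3 to 4 when an array was left out and 2 under median scaling over all probes. Nodal itself did not pass (-0.06). Fst, which binds and blocks activin, read 6.15 and 5.85 in EpiSC-GFP+ and 7.67 and 7.65 in EpiSC-GFP- (-1.66 ± 0.23, adjusted p = 0.00126). Lefty1, an inhibitor and target of Nodal, read 11.30 and 11.35 against 12.23 and 12.22 (-0.90 ± 0.13, adjusted p = 0.00183), a call lost under median scaling over all probes. Its neighbour Lefty2 was higher by 0.49 ± 0.12 (adjusted p = 0.0203), a call lost when an array was left out (highest adjusted p = 0.103). The 2 Lefty genes are similar in sequence, and the probes may not separate them fully.

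In the BMP list, 3 of 17 were higher and 1 lower (23.5%), which is near the share of all genes. Bmp4, the ligand, read 7.22 and 7.42 in EpiSC-GFP+ and 5.61 and 5.71 in EpiSC-GFP- (1.66 ± 0.26, adjusted p = 0.00265). Chrd, a secreted antagonist of BMP, read 5.18 and 5.31 against 6.73 and 6.76 (-1.50 ± 0.27, adjusted p = 0.00441). The target gene Id1 did not pass (0.06). In the retinoic acid list, 3 of 11 tested members were higher and 4 lower (63.6%, against 26.1% of all genes). Only 7 of the 11 were detected in E3, and several of the calls depended on the processing. The largest rise was that of Rxra (1.11, adjusted p = 0.0309), not detected in EpiSC-GFP-, a call kept under 9 of 16 alternatives. It was lost under cyclic loess (adjusted p = 0.0547) and median scaling over the tested probes (adjusted p = 0.167). Rarg was higher by 1.08 (adjusted p = 0.00294), a call kept under all 16, with a second detected probe at 0.30 that did not pass. Rxrb differed by -0.72, a call kept under 10 of 16, and its second detected probe differed by 0.32 without passing. Cyp26a1, the enzyme that degrades retinoic acid, had the largest fall. It read 4.83 and 4.85 in EpiSC-GFP+, where it was not detected, and 5.94 and 6.29 in EpiSC-GFP-, at least 2.00-fold lower (adjusted p = 0.00306).

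**Figure D3:**
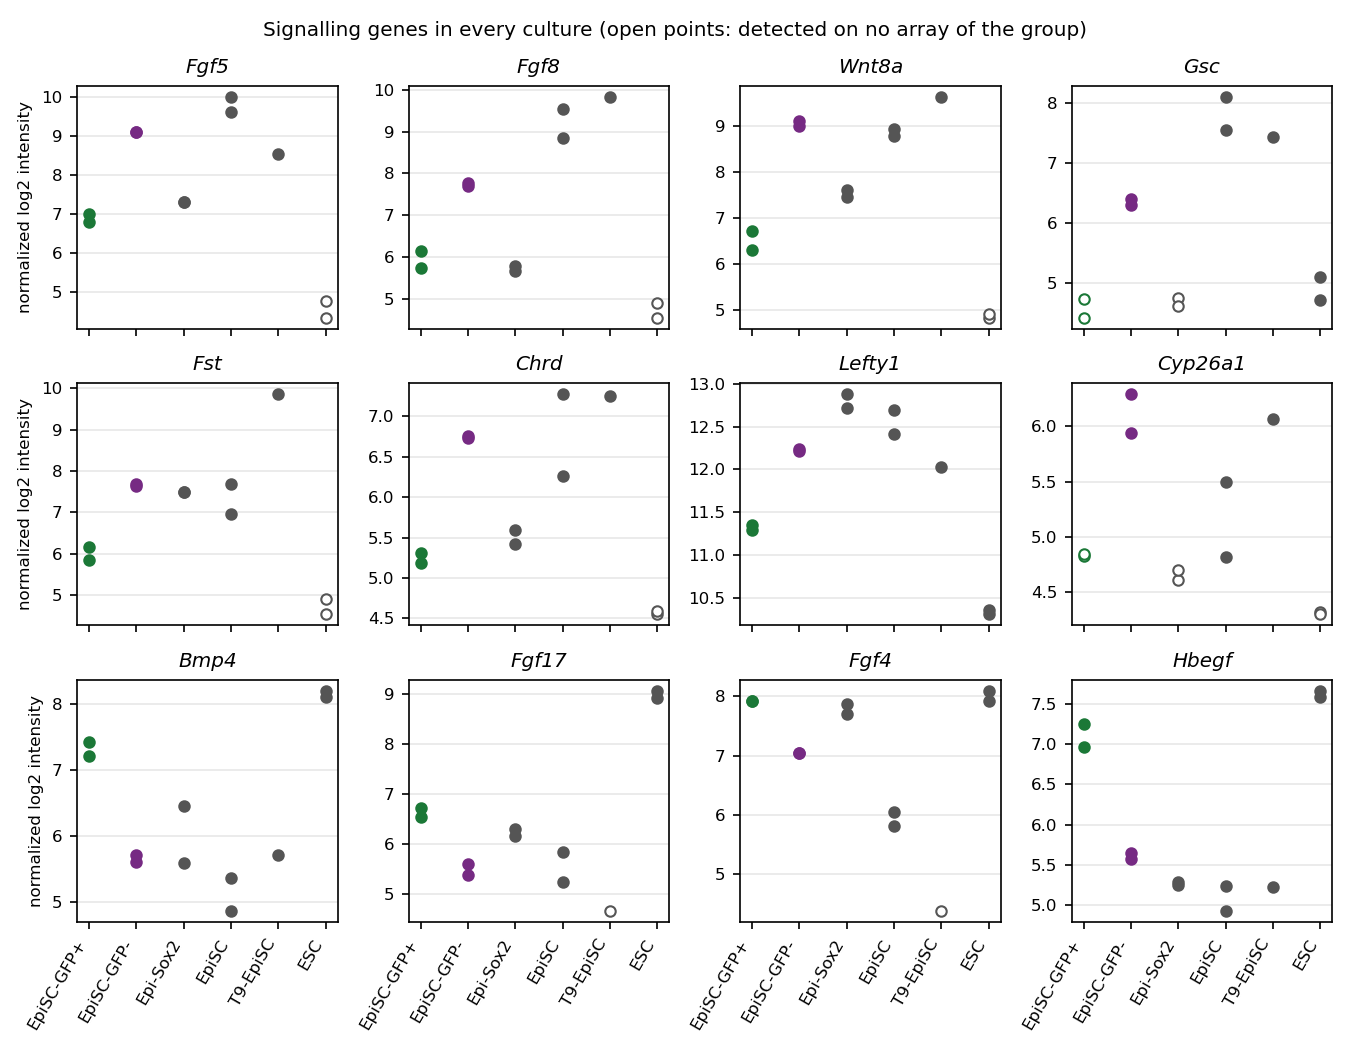
Normalized log2 intensity of 12 signalling genes on every array, by culture, with open points where a gene was detected on no array of the group and a separate y axis for each gene. Fgf5 lies at 6.80 and 7.0 in EpiSC-GFP+ against 9.09 and 9.11 in EpiSC-GFP-, and Bmp4 at 7.22 and 7.42 against 5.61 and 5.71.

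In the histone modifier and remodeler list 8 of 36 tested members were higher and 1 lower (25%), near the 26.1% of all genes, and 5 and 0 without EpiSC-GFP- replicate 2. In the Polycomb list, whose products repress genes through histone marks, 8 of 22 tested members were higher and 2 lower (45.5%), with a median of 0.30. The higher count was 4 without EpiSC-GFP+ replicate 1, 5 without EpiSC-GFP- replicate 1 and 7 without either of the others. Mtf2, a partner of the methylating complex, read 8.71 and 8.55 in EpiSC-GFP+ and 7.28 and 7.68 in EpiSC-GFP- (1.15 ± 0.16, adjusted p = 0.00152). Phc2, a subunit of the other complex, read 7.35 and 7.28 against 8.86 and 8.85 (-1.54 ± 0.21, adjusted p = 0.00122). The enzyme gene Ezh2 differed by 0.39 and Suz12 by 0.12, neither past the test. Kat6b, a histone acetyltransferase, read 9.65 and 9.82 against 7.77 and 7.71 (2.00 ± 0.12, adjusted p = 7.25e-06), with differences of 0.69 on a probe detected on 1 array and of -0.04 on one not detected in E3. In the DNA methylation list 3 of 11 were higher and 0 lower (27.3%), near the 26.1% of all genes, and 7 were higher under median scaling over all probes. They were Dnmt3l, the cofactor of new methylation that the naive list holds too, the cytidine deaminase gene Apobec3 (1.15 ± 0.15, adjusted p = 0.000872) and the corepressor gene Trim28 (0.46, a call lost when an array was left out, highest adjusted p = 0.143), while Dnmt1 differed by 0.23 without passing.

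Among imprinted genes, 6 of 17 tested were lower and 1 higher (41.2%, against 26.1% of all genes), with a median of -0.29. The lower count was 3 without EpiSC-GFP+ replicate 1, 2 without its replicate 2, 3 without EpiSC-GFP- replicate 1 and 1 under median scaling over all probes. Cdkn1c, an inhibitor of the cell cycle made from the maternal copy, read 8.68 and 8.65 in EpiSC-GFP+ and 10.23 and 10.12 in EpiSC-GFP- (-1.51 ± 0.13, adjusted p = 9.92e-05). Ascl2, a factor of the placenta, was detected in EpiSC-GFP- only and was at least 1.32-fold lower in EpiSC-GFP+, and Igf2, a growth factor made from the paternal copy, was lower by 0.63 on the log2 scale. The calls of Ascl2 and Igf2 were lost under median scaling over all probes, and that of Igf2 also with an array left out (highest adjusted p = 0.0683).

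Enzymes and transporters moved in both directions. In the glutathione and redox list 11 of 37 tested members were higher and 2 lower (35.1%), with a median of 0.02. Besides Gstp2, the glutathione peroxidase gene Gpx2 read 8.09 and 8.30 in EpiSC-GFP+ and 6.04 and 5.82 in EpiSC-GFP- (2.27 ± 0.15, adjusted p = 1.33e-05), and Sod2, the mitochondrial superoxide dismutase, was higher by 0.97 (adjusted p = 0.00116). Carbonic anhydrases, which interconvert carbon dioxide and bicarbonate, had 4 of 8 tested members lower and 0 higher, where 12.9% of all genes were called lower. Of the 8, 6 were detected in E3. Median scaling over all probes gave 2 lower and 1 higher, and the call of Car11 (-0.55) was kept under 9 of 16 alternatives. Car2 read 7.57 and 7.64 against 9.06 and 9.09 (-1.47 ± 0.18, adjusted p = 0.000727) and Car14 9.72 and 9.63 against 10.67 and 10.67 (-1.0 ± 0.17, adjusted p = 0.00325). Of 172 solute carriers tested 29 were higher and 30 lower (34.3%, against 26.1% of all genes), with Slc17a9, a vesicle nucleotide transporter, at least 2.68-fold higher. The lower count was 13 without EpiSC-GFP+ replicate 1 and 19 without EpiSC-GFP- replicate 2, and median scaling over all probes gave 41 higher and 9 lower.

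Ribosomal proteins had 2 of 59 tested members higher and 3 lower (8.47%), and respiratory chain subunits 7 of 72 higher and 6 lower (18.1%), where 26.1% of all genes were called. With any 1 of the 4 arrays left out, the respiratory counts were 2 to 5 higher and 0 to 2 lower. Median scaling over all probes gave 13 higher and 0 lower in the respiratory list and 15 and 0 in the ribosomal list. Cox6c, a subunit of cytochrome oxidase, was the respiratory gene with the largest difference, at 10.30 and 10.47 in EpiSC-GFP+ against 8.71 and 8.52 in EpiSC-GFP- (1.77 ± 0.20, adjusted p = 0.000494). The heat shock and chaperone list had 9 of 29 higher and 1 lower (34.5%), but the higher count was 2 without EpiSC-GFP+ replicate 1, 5 without its replicate 2 and 4 without EpiSC-GFP- replicate 2. At the surface, Alpl, the alkaline phosphatase used to stain pluripotent colonies, read 9.25 and 9.37 against 7.31 and 7.25 (2.03 ± 0.19, adjusted p = 0.000173), and Cd59a, a complement inhibitor, 9.0 and 8.87 against 10.11 and 10.14 (-1.19 ± 0.12, adjusted p = 0.000279). Nid1, a basement membrane protein, was at least 2.23-fold higher.

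**Figure D4:**
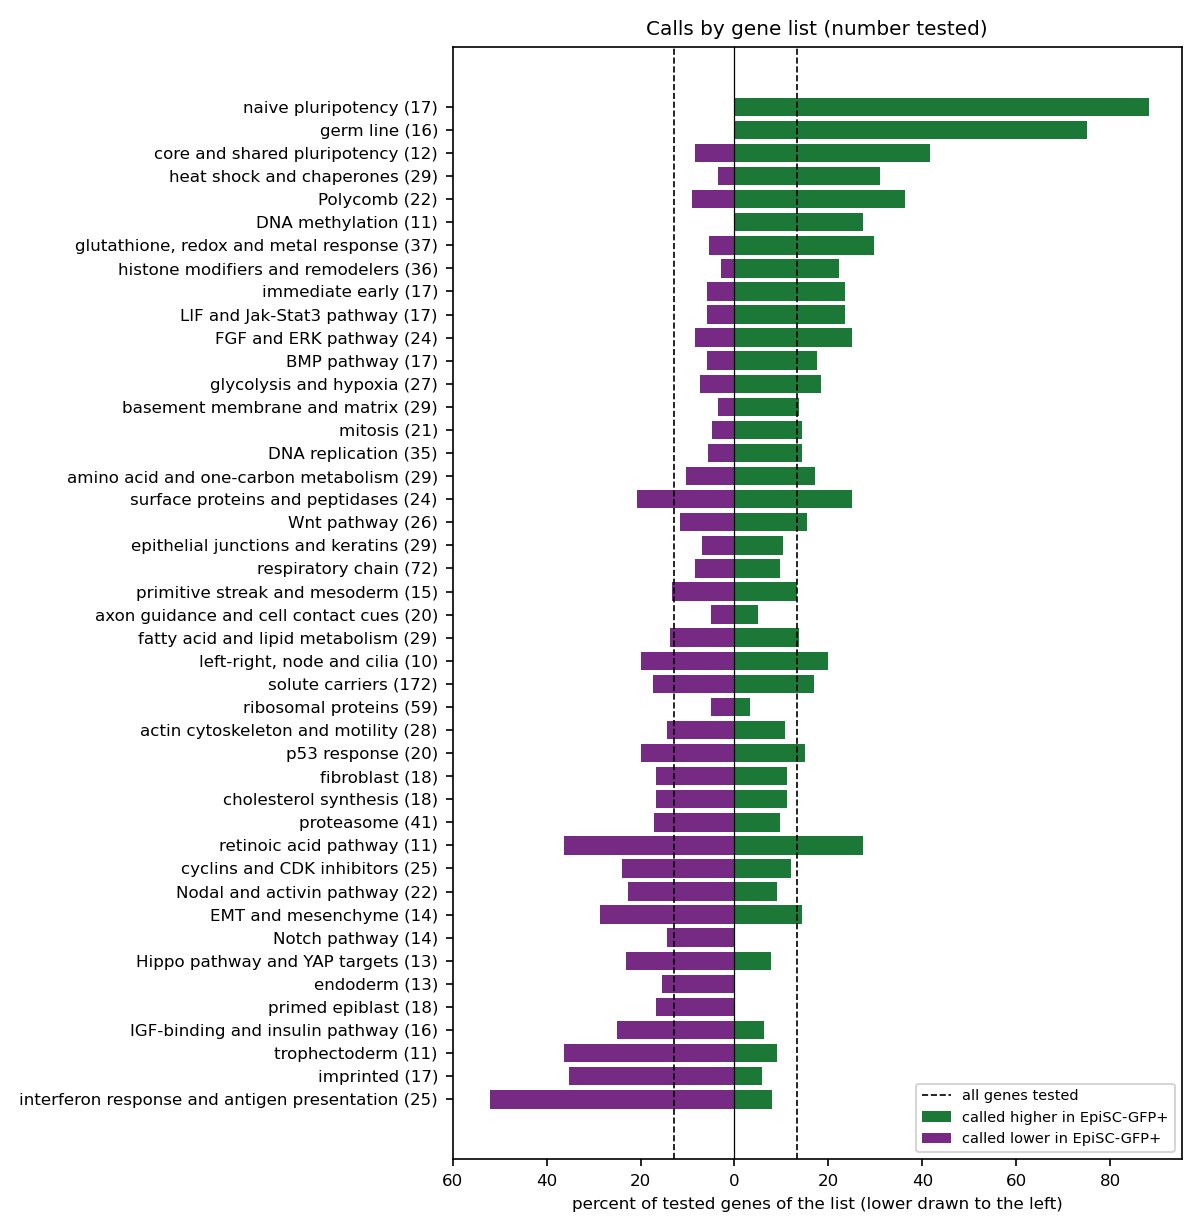
Percent of the tested genes of each list called higher (to the right) or lower (to the left) in EpiSC-GFP+ than in EpiSC-GFP-, for lists with enough tested genes, with the number tested in parentheses and dashed lines at the 13.2% and 12.9% of all genes. The naive and germ line lists lie at the high end and the interferon list at the low end.

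Markers of other cell types that a culture could hold were examined list by list. Over all genes tested, 13.2% were called higher and 12.9% lower. For fibroblasts, 11 of 18 tested markers were detected in E3, with 2 called higher and 3 lower, and Col1a1, Col3a1, Dcn and Lox were not detected on any E3 array. The summed linear signal of that list was 6149 to 6295 in EpiSC-GFP+ and 6110 to 6154 in EpiSC-GFP-. For endoderm, 2 of 13 were lower, the hormone gene Trh and the peptidase inhibitor gene Spink1, whose call was lost under 4 alternatives, while Sox17, Gata6 and Foxa2 were not detected, and the summed signal was 9638 to 10301 against 18431 to 20340. Trh, at 13.14 and 13.02 against 14.22 and 14.05, made up most of that sum, which without it was 1254 to 1306 against 1234 to 1422. Trophectoderm markers had 1 of 11 higher and 4 lower, with Cdx2 and Gata3 not detected and summed signals of 2601 to 2610 against 2633 to 2662. The keratin gene Krt19 (-1.65 ± 0.17, adjusted p = 0.000236) and the AP-2 factor gene Tfap2c (1.27 ± 0.13, adjusted p = 0.000229) moved in opposite directions. Neuroectoderm markers had 1 of 6 higher, the Sox factor gene Sox21 (1.32), and 2 lower, and their summed signal was 381 to 384 against 399 to 476. Blood and endothelial markers had 2 of 7 higher, Pecam1, which the naive list holds too, and Vwf. Their summed signals were 728 to 792 against 456 to 500. Pecam1, with a mean of 8.39 in EpiSC-GFP+ against 6.10 in EpiSC-GFP-, made up most of that gap. Whether small numbers of such cells had a part in the results was not tested.

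The same genes were looked up where Sox2 was overexpressed, in Epi-Sox2 against EpiSC, a comparison that shares no array with the E3 fractions. It called 1888 genes (19.6%), of which 1007 were higher (10.5%) and 881 lower in Epi-Sox2 (9.16%). Of the 1267 genes higher in EpiSC-GFP+, 339 were also higher in Epi-Sox2, which is 26.8% of the E3 genes and 33.7% of the others, and 64 were lower. Of the 1240 lower in EpiSC-GFP+, 234 were also lower in Epi-Sox2 (18.9% and 26.6%) and 104 were higher. The 2 differences correlated at r = 0.344 over all 9620 genes and 0.510 over the 2507 called in E3, as a description across genes. Of the 16 largest rises 15 were also called higher in Epi-Sox2, and of the 16 largest falls 12 were called lower.

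The difference of the 2 differences was tested for each gene, and 1483 genes passed (15.4%), 715 more positive in E3 (7.43%) and 768 more negative (7.98%), with 937 of them called in E3. A gene detected on neither array of a group has no exact difference there. Rbmxl2 was called higher in both comparisons and was detected neither in EpiSC-GFP- nor in EpiSC. Xlr4a departed upwards, at 8.64 and 8.66 in EpiSC-GFP+ against 4.29 and 4.43 in EpiSC-GFP-, but 6.66 and 6.98 in Epi-Sox2 against 6.14 and 6.21 in EpiSC, and the test of the 2 differences passed (adjusted p = 8.02e-05) with EpiSC-GFP- not detected. Slc7a11, the cystine transporter, was higher in EpiSC-GFP+ (1.59) and lower in Epi-Sox2 (-1.77), where it was detected on 1 of the 2 arrays, a difference of 3.36 (adjusted p = 8.95e-05).

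In the other direction, Vstm2l, an immunoglobulin domain gene, read 7.10 and 6.94 in EpiSC-GFP+ and 7.64 and 7.51 in EpiSC-GFP-, but 12.02 and 11.84 in Epi-Sox2 and 7.88 and 8.23 in EpiSC (difference of differences -4.43, adjusted p = 4.04e-05). Its own call in E3 (-0.56, adjusted p = 0.0244) was lost under 5 alternatives, each of the 4 single-array omissions among them. The hormone gene Sct and the vesicle protein gene Svop departed by -2.58 and -2.57. Fgf8 fell in both comparisons but less in E3, by 1.79 on the log2 scale in E3 and by 3.47 in Epi-Sox2 (difference 1.68, adjusted p = 0.0135). Nanog was called in E3 (1.26) and not in Epi-Sox2 (-0.10), and that difference passed the test (1.36, adjusted p = 0.0130). In the interferon list Gbp2 was lower in both, with differences of -1.30 in E3 and -1.65 in Epi-Sox2, and the difference did not pass (adjusted p = 0.205). Tap2, the largest fall of that list, differed by -1.96 in E3 and by -0.53 in Epi-Sox2, where it was not called (adjusted p = 0.140). The test of its 2 differences passed (-1.43, adjusted p = 0.0209) with EpiSC-GFP+ not detected. In the germ line list Tuba3a was called in E3 but not in Epi-Sox2, and the test of the 2 differences passed (adjusted p = 0.00525) with EpiSC-GFP- not detected.

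**Figure D5:**
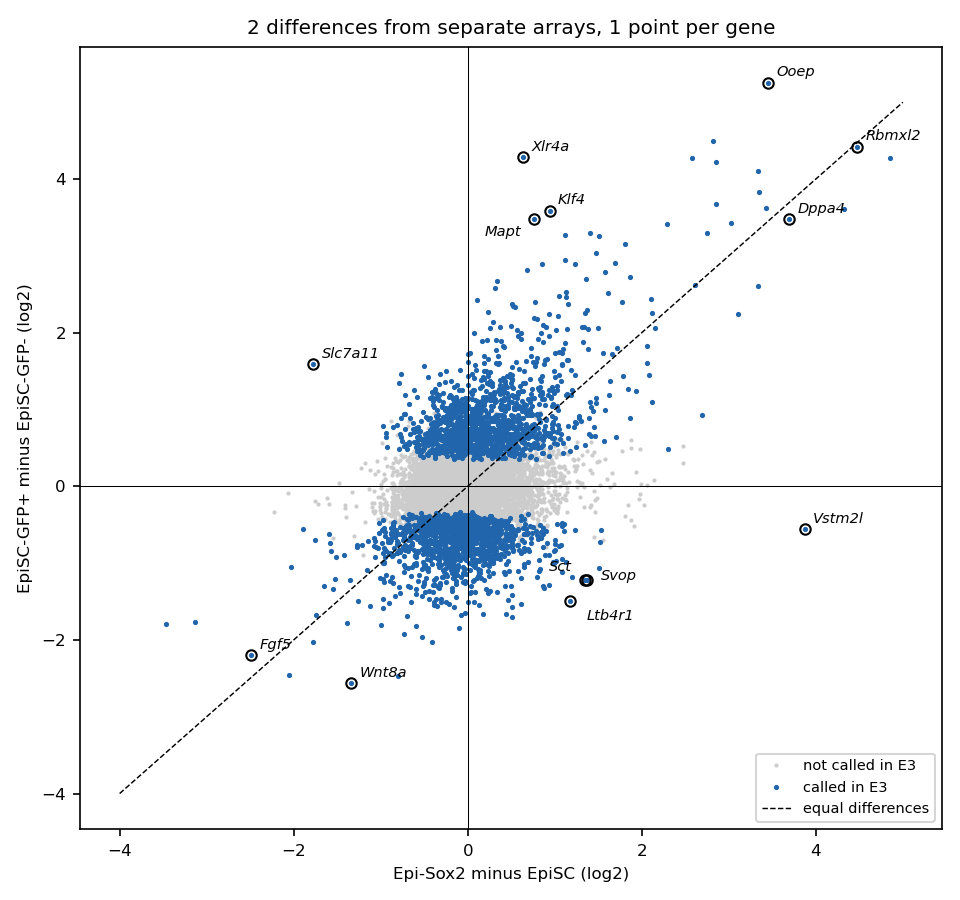
Difference of EpiSC-GFP+ and EpiSC-GFP- (y axis, log2) against that of Epi-Sox2 and EpiSC (x axis, log2), 1 point per gene, with genes called in E3 in blue and the dashed line at equal differences. Slc7a11 (1.59 against -1.77) lies above the line and Vstm2l (-0.56 against 3.88) below it, and genes not detected in a group are drawn at their readings.

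Set against EpiSC minus ESC, which shares no array with the E3 fractions either, 881 of the 1240 genes lower in EpiSC-GFP+ (71%) were higher in EpiSC than in ESC, as were 40.2% of all genes. Of the 1267 genes higher in EpiSC-GFP+, 574 (45.3%) were lower in EpiSC than in ESC, as were 26% of all genes, and 254 (20%) were higher. Across the 9620 genes the 2 differences correlated at r = -0.392. For comparison, 96 genes lower in EpiSC-GFP+ (7.74%) were lower in EpiSC than in ESC.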

How the data were processed

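RNA from 6 kinds of culture was measured on 11 Illumina MouseRef-8 v2 arrays. Per the file headers, the deposited tables give each probe's average signal, an intensity, with its detection p-value. BeadStudio 3.2, lumi and RMA are named in the submitters' processing notes. The deposited series matrix holds the authors' log2 values, with a median of 2.637 on each array and a Spearman correlation of 1 with that array's signal. Its background step and centring are not given in the sources used here, so it served as an alternative only.

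Signals were corrected with normexp (neqc, offset 16), quantile normalized and taken to log2 in limma 3.58.1 under R 4.3.3. Probes detected at p under 0.01 on at least 2 arrays were kept (13048), and a gene was represented by its brightest probe, giving 9620 genes. Of all probes 23978 had 1 gene symbol and 1719 had none. Near-identical gene copies may share signal. One linear model was fitted over all groups, with 5 residual and 4.21 prior degrees of freedom, and the number of arrays limits the precision.

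Named genes were Pou5f1, Sox2, Nanog and the markers, the 16 largest rises and 16 largest falls outside the naive list, up to 4 called genes per list, and the 4 largest departures from the Sox2 comparison in each direction. The 16 rises and 16 falls were taken among called members whose fractions did not overlap, leaving out clone, predicted-gene and open reading frame names. Further examples were chosen after their values were seen. Members and lists were chosen with earlier results of these data known. Whether same-numbered samples were paired is not given in the sources used here, and the main fit treated them as unpaired. Deviations of same-numbered arrays correlated at 0.00142 between the fractions and at -0.0187 to 0.0821 over all group pairs. Such values show little shared variation but cannot show that the samples were unpaired. On simulated data for EpiSC-GFP+ against EpiSC-GFP- (9620 genes), the fit recovered 8% of 50 genes changed by 0.5, 74% of 50 changed by 1, 88% of 50 changed by -1 and 100% of 50 changed by 2 log2 units, with 8 false calls. Alternatives changed the background step, scaling, filter, probe choice, arrays fitted, variance trend, replicate block and arrays left out.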

Additional observations from a re-analysis of the deposited data

How the results depend on the processing

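Of 204 called genes with alternatives computed, 113 kept their call and direction under each and 91 lost it under at least 1, of which 51 did so under median scaling over all probes, 29 with the authors' values and 43 to 55 without a single E3 array. The cause of these losses was not tested. The fits without a single E3 array also rest on fewer arrays. Against 2507 calls (1267 higher, 1240 lower), median scaling over all probes gave 2216 higher and 202 lower, so that 91.6% of its calls were higher against 50.5%. Requiring at least 1 log2 unit left 588 calls, 383 higher and 205 lower, and 744 of the 1483 departures from the Sox2 comparison. Those departures numbered 2225 without background correction and 887 with the authors' values. Leaving out 1 array gave 1349 to 1764 calls, 751 to 959 higher and 595 to 805 lower, with 763 to 1152 departures. With the replicate number as a block there were 2395 calls, 1232 higher and 1163 lower, and 1371 departures, and the call of 4 named genes was lost. The labels give only a shared number, so whether this block is a pairing is not known. Cdx1, not detected on any E3 array, was called higher but reversed to -0.13 (adjusted p = 0.589, limma) under median scaling over the tested probes, chosen after seeing the data, differed by 0.05 (adjusted p = 0.823) with cyclic loess and kept its call under 3 of 15 alternatives. Genes near the lowest detected signal, 5.11 to 5.46 on the 4 E3 arrays, have bounded differences. The slide could not be used as a block because the deposited tables name none.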
